A study of Mus musculus with 12 samples.

Results

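A set of 9 genes expressed in the testis was examined for H4K20me3, trimethylation of lysine 20 of histone H4 and a mark of heterochromatin, in mouse embryonic stem cells. They are Rpl10l, Rpl39l, H1f7, Pgk2, Pdha2, Cetn1, Cstf2t, Actl7a and Actl7b, out of 21523 protein-coding genes and 49214 annotated genes used. Their RefSeq bodies on build GRCm38 (mm10) were intersected with 1 deposited list of 28210 H4K20me3 domains. The list names no build, and its positions were taken to be on GRCm38. The genes were named with earlier results of this list known, among them that Rpl10l, Rpl39l and H1f7 lie in domains, so the set was in part chosen by its overlap with domains, which is described here without a test.

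The list comes from ChIP-seq of the embryonic stem cell line dTKO, in which Suv39h1 and Setdb1 are floxed and Suv39h2 is null in every sample (Suv39h1fl/fl; Suv39h2-/-; Setdb1fl/fl). These genes encode H3K9 methyltransferases. The cells had been in medium with auxin (100 μg/ml) and dTAG13 (0.5 μM) for 0, 12, 24 or 48 h when collected, and each of the 4 times has 3 replicates. The list names no sample or time and holds no signal, so the depth of each library is unknown, no time could be compared, and no value below has a replicate error. A single line was used throughout, the labels do not name the proteins that the 2 agents deplete, and the stem cell label could not be checked against marker genes.

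Retrogenes arise when a spliced messenger RNA is copied back into DNA and inserted elsewhere in the genome, usually without introns and without the promoter of the parent gene. Several parents are housekeeping genes on the X chromosome, which is silenced during male meiosis, when testis-expressed autosomal copies can supply the protein. H4K20me3 is written mainly by the enzymes KMT5B and KMT5C, which are brought to chromatin by HP1 proteins bound to methylated H3K9. Of the 9 genes, Rpl10l, Rpl39l, Pgk2, Pdha2, Cetn1 and Cstf2t have X-linked parents (Rpl10, Rpl39, Pgk1, Pdha1, Cetn2 and Cstf2), while H1f7 is a linker histone gene and Actl7a and Actl7b are a pair of actin-like genes.

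Of the 9 genes, 3 met a domain, and in each of the 3 the domain lay over the start of the gene and ended before its end. The 250 bases before each start are shown for these 3, for Cstf2t, whose nearest domain stops just short of it, and for Pgk1 and Pgk2, a parent with a domain at its start and its copy without one. Sequences are from RefSeq on build GRCm38.p6, 5′ to 3′, with every CG dinucleotide, the site of DNA methylation in mammals, in capitals. The promoter table held 8 of the 9 genes, and Cetn1 was not among them.
Rpl10l, chr12:66284402-66284651, minus strand: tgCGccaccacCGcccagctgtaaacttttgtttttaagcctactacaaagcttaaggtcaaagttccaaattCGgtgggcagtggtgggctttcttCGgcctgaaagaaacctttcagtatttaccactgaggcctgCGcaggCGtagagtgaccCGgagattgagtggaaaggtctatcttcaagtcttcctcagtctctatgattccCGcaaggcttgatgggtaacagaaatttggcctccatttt
Rpl39l, chr16:10169978-10170227, plus strand: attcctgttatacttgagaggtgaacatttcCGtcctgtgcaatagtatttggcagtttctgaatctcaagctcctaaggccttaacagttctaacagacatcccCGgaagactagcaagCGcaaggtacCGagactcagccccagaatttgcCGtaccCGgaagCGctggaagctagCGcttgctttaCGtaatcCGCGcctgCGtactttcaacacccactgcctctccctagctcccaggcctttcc
H1f7, chr15:98257308-98257557, minus strand: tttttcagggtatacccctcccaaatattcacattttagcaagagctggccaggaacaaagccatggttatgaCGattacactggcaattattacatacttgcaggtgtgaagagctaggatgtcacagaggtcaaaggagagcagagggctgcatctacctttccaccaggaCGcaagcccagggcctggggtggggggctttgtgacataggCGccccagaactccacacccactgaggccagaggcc
Cstf2t, chr19:31082591-31082840, plus strand: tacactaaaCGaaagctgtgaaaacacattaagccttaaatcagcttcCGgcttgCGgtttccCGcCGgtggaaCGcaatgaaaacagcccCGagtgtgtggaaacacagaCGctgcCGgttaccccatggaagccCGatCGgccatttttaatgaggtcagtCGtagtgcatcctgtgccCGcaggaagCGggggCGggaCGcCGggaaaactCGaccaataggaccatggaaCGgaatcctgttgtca
Pgk2, chr17:40208610-40208859, minus strand: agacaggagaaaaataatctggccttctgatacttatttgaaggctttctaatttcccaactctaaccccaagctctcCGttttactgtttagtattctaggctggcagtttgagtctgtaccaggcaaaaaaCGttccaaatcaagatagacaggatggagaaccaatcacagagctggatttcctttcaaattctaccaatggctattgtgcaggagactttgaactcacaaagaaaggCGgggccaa
Pgk1, chrX:106186850-106187099, plus strand: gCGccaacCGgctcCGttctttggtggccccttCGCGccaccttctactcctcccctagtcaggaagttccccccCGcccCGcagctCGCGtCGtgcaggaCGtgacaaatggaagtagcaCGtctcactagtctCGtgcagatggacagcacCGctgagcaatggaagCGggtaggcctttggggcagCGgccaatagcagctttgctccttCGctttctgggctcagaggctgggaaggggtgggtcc
All 250 bases shown lay in a domain for Rpl10l, Rpl39l, H1f7 and Pgk1, and none did for Cstf2t and Pgk2.

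The 3 of 9 genes make 33.3%, where 13.9% of 20560 autosomal protein-coding genes met a domain by at least 1 base. Because short genes meet fewer domains, the share among the 4512 autosomal protein-coding genes of at most 5 kb, 2.75%, is the closer background, as the 9 genes are 1.02 to 4.71 kb long. These shares stand beside the count only as a background, since the count was known when the genes were named. All 3 genes were covered over more than 50% of their body. Coverage of at least 50% held for 0.642% of autosomal protein-coding genes and for 1.55% of those of at most 5 kb, but among the 124 of the latter that met a domain it held for 70, with a median coverage of 66.3%, so that the 3 genes lay near other short genes with a domain in this respect.

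Rpl10l encodes a testis form of the large-subunit ribosomal protein Rpl10. Its body lies on chromosome 12 from 66283379 to 66284401, 1023 bases on the minus strand. A single domain at 66283651 to 66284850, 1.20 kb wide, covered 751 bases, or 73.4%, of the body. It began 449 bases before the gene's start and left the last 272 bases of the gene outside. This was a narrow domain, since 89.0% of autosomal domains were as wide or wider (median 2.85 kb). It was also a lone one, with the next domains 73.95 kb and 111.3 kb away, where the median distance from an autosomal domain to its nearest other domain was 19.5 kb. The nearest protein-coding genes were far off, Wdr20rt at 1055 kb, which met no domain, and Mdga2, a neuronal adhesion gene, at 175.0 kb, with 0.609% of its body covered.

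Rpl39l encodes a testis form of the small ribosomal protein Rpl39. Its body, on chromosome 16 from 10170197 to 10174911, is 4715 bases long on the plus strand. The domain at 10168651 to 10173750 was 5.10 kb wide and covered 3554 bases, or 75.4%. It began 1.55 kb before the gene and left its last 1.16 kb outside. Among autosomal domains, 21.8% were as wide or wider. Unlike the lone domain of Rpl10l, this one stood in a crowd, with the next domain only 2.25 kb further on. That neighbour was 16.5 kb wide and reached from 10176001 to 10192500, filling most of the gap to Atf7ip2, a gene for a germ-cell partner of SETDB1, whose body starts at 10192649. Atf7ip2 itself had 12.75 kb, or 21.95%, of its body in domains, while Grin2a, a glutamate receptor gene 174.1 kb away on the other side, had none.

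H1f7 encodes a linker histone of spermatids that takes part in chromatin condensation in the sperm head. It lies on chromosome 15 from 98255982 to 98257307, 1326 bases on the minus strand. The domain at 98256301 to 98259150, 2.85 kb wide and so of median autosomal width, covered 1007 bases, or 75.9%. Of the 3 domains it reached farthest before the start, by 1.84 kb, and it left the last 319 bases of the gene outside. Its neighbours among the domains were 98.85 kb and 62.1 kb away. The protein-coding genes on either side, the olfactory receptor gene Olfr286 at 21.53 kb and the zinc finger gene Zfp641 at 28.28 kb, met no domain.

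**Figure D1:**
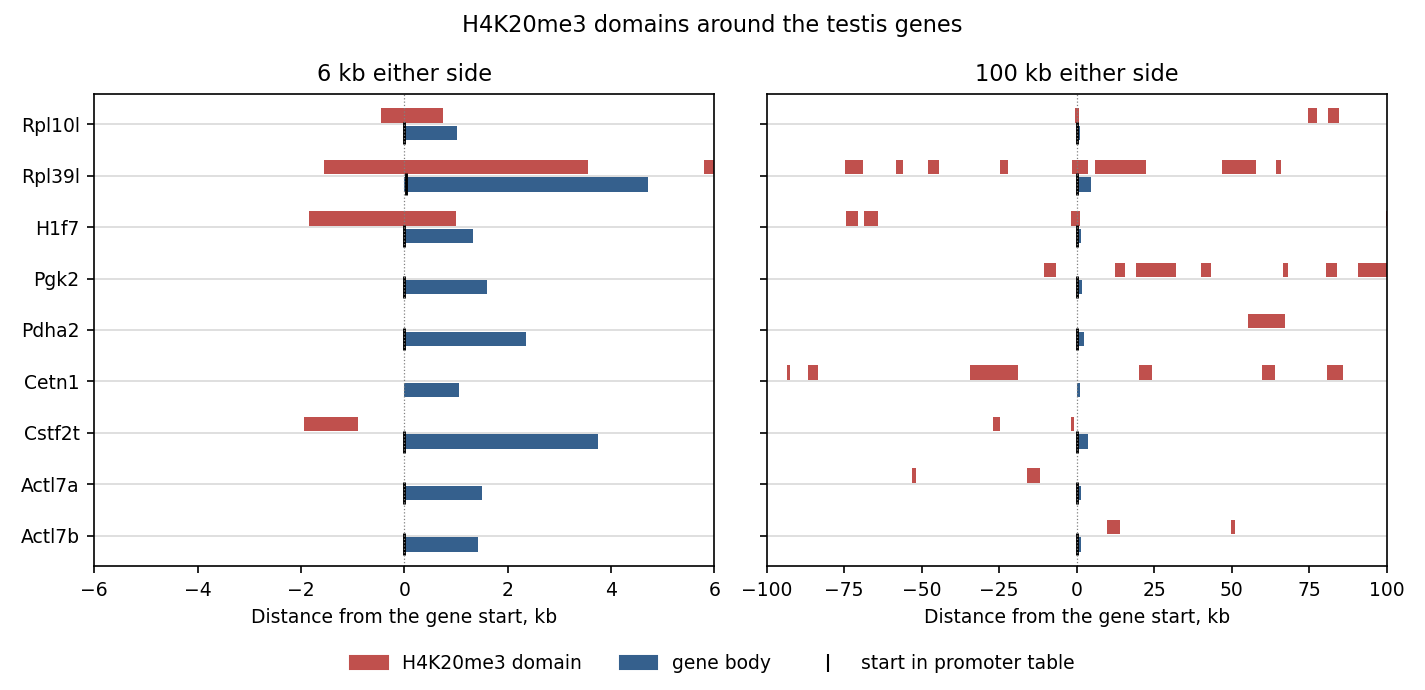
Domains (red, upper bars) and gene bodies (blue, lower bars) of the 9 testis genes, with distance from the gene start in kb on the x axis and each gene drawn 5′ to 3′; black ticks mark the start in the promoter table, and Cetn1, which has none, is drawn from its left end. Rpl10l, Rpl39l and H1f7 each have a domain that spans the start and stops inside the gene, and the domain of Cstf2t ends 0.890 kb before its start.

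The position within the gene was not part of the rule. In 3 of 3 genes the start base lay in the domain and the end base did not. Among 103 autosomal protein-coding genes of at most 5 kb that met a domain and had a strand in the promoter table, this arrangement held for 27 (26.2%). In 31 (30.1%) the end base alone was in a domain, in 33 (32.0%) both were, and in 12 (11.65%) neither was. For the testis genes the part left outside was small, 272 bases of Rpl10l and 319 of H1f7 on a boundary grid of 150 bases. With domains closer than 5 kb merged, all 4715 bases of Rpl39l were covered, its end base included. Counted by the 250 bases before the start, 3 of the 8 genes in the promoter table were in a domain, where 1.79% of 3682 autosomal protein-coding genes of at most 5 kb and 1.43% of all 16457 autosomal ones were. These are the same 3 genes, named with their domains known, so this count mostly restates the choice of genes. Of the 103 short genes that met a domain, 60 (58.25%) had the start base in it. No test was made of the difference between 3 genes and these shares.

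Cstf2t, which encodes the testis form of a subunit of the cleavage stimulation factor used in polyadenylation, was the gene just outside the overlap rule, as Rpl10l with 751 bases was the one with the smallest overlap inside it. The Cstf2t body lies on chromosome 19 from 31082841 to 31086592 (3752 bases, plus strand) within the body of Prkg1, a kinase gene on the minus strand that had 1.22% of its body covered. A domain of 1.05 kb, from 31080901 to 31081950, ended 890 bases before the start. With 1 kb added to both ends of every gene, Cstf2t would count and 4 of 9 genes would meet a domain, against 4.34% of autosomal protein-coding genes of at most 5 kb. On the other side no domain followed for 714.5 kb.

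Pgk2 and Pdha2 encode testis forms of enzymes of energy metabolism, phosphoglycerate kinase of glycolysis and the alpha subunit of pyruvate dehydrogenase. Pgk2, on chromosome 17 from 40207018 to 40208609 (1592 bases, minus strand), met no domain but lay between 2 of them. One of 3.90 kb began 6.54 kb upstream and another ended 10.77 kb downstream. Crisp3, a gene for a secreted cysteine-rich protein 13.17 kb away, and Esp38, at 251.7 kb, met none. Pdha2, on chromosome 3 from 141210004 to 141212355 (2352 bases, minus strand), was the farthest of the 9 from any domain, 52.8 kb downstream of it to a domain of 12.15 kb and 164.9 kb upstream to the next. Its nearest protein-coding neighbours were also distant, with Unc5c at 253.2 kb (2.72% covered) and Stpg2 at 1500.0 kb (8.02% covered).

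Cetn1 encodes a centrin, a calcium-binding protein of centrioles, and lies on chromosome 18 from 9618419 to 9619469 (1051 bases). It met no domain and stood midway in a gap, with domains 18.87 kb to the left and 18.93 kb to the right. The left one was 15.45 kb wide. The adjacent protein-coding genes Ccny and Colec12 met no domain.

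Actl7a and Actl7b encode actin-like proteins of spermatids. They stand head to head on chromosome 4, Actl7b from 56740005 to 56741425 on the minus strand and Actl7a from 56743422 to 56744925 on the plus strand, with 1.996 kb between their starts. Neither met a domain. The nearest one, 4.20 kb wide at 56727451 to 56731650, served both, 8.35 kb from the end of Actl7b and 11.77 kb from the start of Actl7a. To the right no domain followed for 261.1 kb from Actl7a. On the other side the nearest protein-coding gene, the pluripotency factor gene Klf4 at 1208 kb, met none.

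In order of distance to the nearest domain, Rpl10l, Rpl39l and H1f7 were at 0, followed by Cstf2t at 0.890 kb, Pgk2 at 6.54 kb, Actl7b at 8.35 kb, Actl7a at 11.77 kb, Cetn1 at 18.87 kb and Pdha2 at 52.8 kb. Among autosomal protein-coding genes, 15.2% were as close as Cstf2t or closer, 22.7% as Pgk2, 25.1% as Actl7b, 29.1% as Actl7a, 36.0% as Cetn1 and 56.5% as Pdha2. Genes of all lengths enter these ranks, and 13.9% of them met a domain. Of those of at most 5 kb, the closer background, 2.75% met a domain and 4.34% did with 1 kb added at both ends. The median of the 9 was 6.54 kb and that of the 6 genes without a domain 10.1 kb, beside medians of 39.15 kb over all autosomal protein-coding genes and 36.15 kb over those of at most 5 kb. Of the 9, 8 were thus nearer to a domain than the median gene, 3 of them by the choice of genes. Actl7a and Actl7b are neighbours measured to the same domain, so they are not separate cases.

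The 9 genes lay in unlike surroundings. The share of the 100 kb on either side that lay in domains, without the gene body, was 22.6% around Rpl39l, 19.9% around Pgk2 and 16.8% around Cetn1. It was 6.08% around Pdha2, where all of it came from 1 domain, and 6.01% around H1f7. Rpl10l had 3.37%, Actl7a and Actl7b 2.77% and Cstf2t 1.73%. The median over autosomal protein-coding genes of at most 5 kb was 2.77%, with quartiles of 0 and 7.72%, so Rpl39l, Pgk2 and Cetn1 were above the upper quartile and Cstf2t was below the median. A dense neighbourhood and a covered start did not go together in each gene, since Pgk2 and Cetn1 had the first without the second and Rpl10l the second without the first.

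In wider windows the values of the 9 lay closer together. At 500 kb on either side, Rpl39l had 4.94%, Cetn1 7.37% and H1f7 1.70%, each well below its value at 100 kb, and Pgk2 still had 14.4%, with 34 domains in that window. The other 5 differed less between the windows, with 4.61% around Pdha2, 3.69% around Rpl10l, 2.38% around Actl7a and Actl7b and 1.47% around Cstf2t. At 1000 kb the values ran from 1.67% for Actl7a and Actl7b to 12.9% for Pgk2. Medians over autosomal protein-coding genes of at most 5 kb were 4.20% at 500 kb and 4.54% at 1000 kb. Pgk2 had the highest value of the 9 in both wider windows, and it had no domain of its own.

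**Figure D2:**
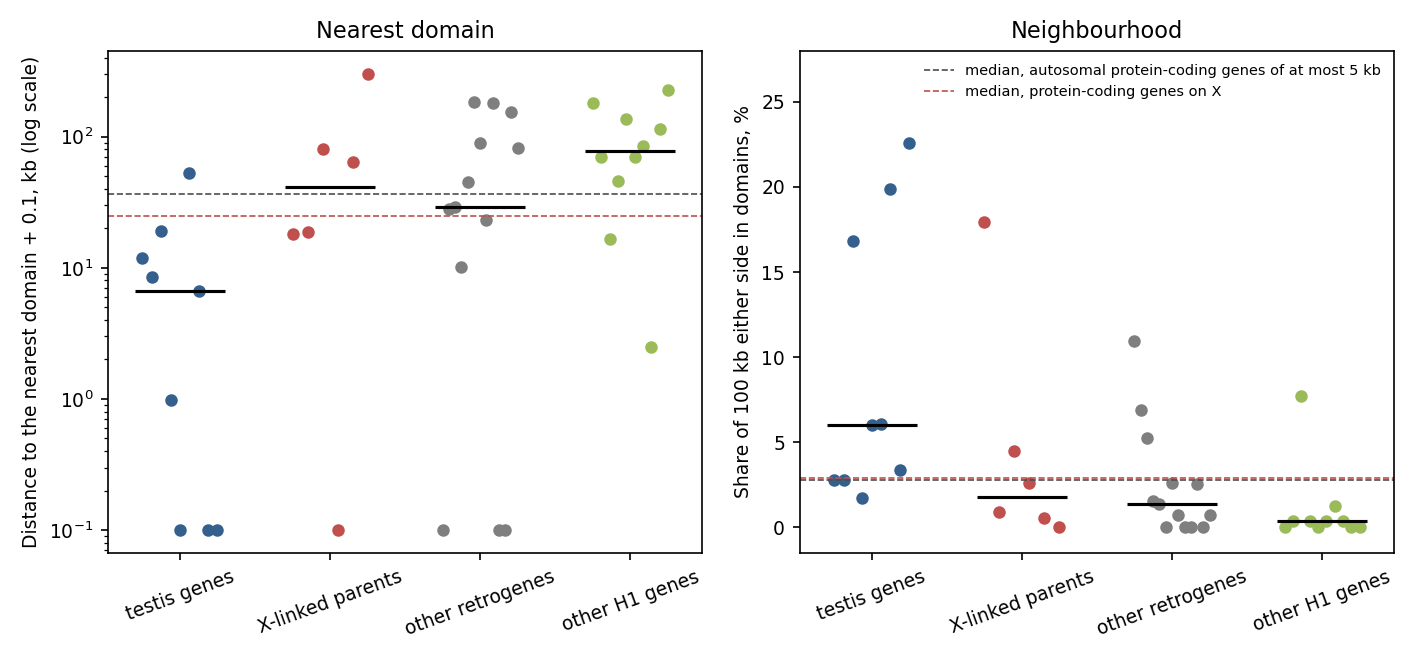
Left, distance in kb from each gene to its nearest domain, with 0.1 added and on a log scale, so that genes inside domains sit at 0.1; right, share in percent of the 100 kb on either side in domains. Points are genes, black bars are medians of the group and dashed lines are medians over all autosomal protein-coding genes of at most 5 kb and over protein-coding genes on X; the 9 testis genes have the lowest median distance (6.54 kb) of the 4 groups drawn, with 3 of them at 0 by the choice of genes.

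The X-linked parents were set beside their copies gene by gene. One of the 6 parents, Pgk1, met a domain, where 18.3% of 963 protein-coding genes on X did. Pgk1 encodes the phosphoglycerate kinase of somatic cells. Its promoter is widely used in vectors, and whether the line carries added copies of it, whose reads could be placed at this gene, was not tested. The gene lies on X from 106187100 to 106203699 (16.6 kb, plus strand), and a domain of only 0.900 kb, at 106186651 to 106187550, covered its start. The domain took in 449 bases before the start and the first 451 bases of the gene, 2.72% of its body. No parent had 50% or more of its length in domains (2.8% of protein-coding genes on X had), and none met a domain at or above the median width (12.5%). Counted by the 250 bases before the start, 1 of 6 parents was in a domain, beside 4.53% of 817 protein-coding genes on X.

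The other 5 parents met none. Rpl39 was the farthest, with 302.4 kb to the nearest domain, and 94.4% of protein-coding genes on X were as close or closer. Pdha1 was at 80.9 kb, Rpl10 at 63.4 kb, Cstf2 at 18.7 kb and Cetn2 at 18.1 kb. Rpl10l and Rpl39l, named with their domains known, carried a domain at the start, while Rpl10 and Rpl39 met none. Most protein-coding genes on X met none either, as 18.3% met one. For Pgk2 and Pgk1 the domain was listed at the parent, with the limit on Pgk1 given above. In the pair of Pdha2 and Pdha1 both genes lay over 50 kb from any domain, and Cetn1 and Cetn2 had almost equal distances of 18.87 and 18.11 kb.

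Around 4 of the 6 parents the share in domains was below the median of 2.92% over protein-coding genes on X. Within 100 kb on either side, the share in domains was 0% around Rpl39, 0.525% around Rpl10, 0.900% around Cstf2, 2.62% around Pgk1 and 4.50% around Pdha1. Cetn2 had the highest share, 17.9%, from 2 domains of 21.0 and 14.85 kb, and its neighbour Nsdhl, 0.176 kb away, had 37.1% of its body covered. In wider windows the median of the parents was not below that of the 9 testis genes: it went from 1.76% at 100 kb to 3.88% at 500 kb and 4.65% at 1000 kb, where the 9 testis genes had 6.01%, 3.69% and 3.34%. Rpl10 alone went from 0.525% at 100 kb to 6.86% at 1000 kb. Medians over protein-coding genes on X were 4.93% and 5.96% in the wider windows. The parents are longer than the copies, at 2.32 to 27.6 kb against 1.02 to 4.71 kb, and longer genes met domains more often (13.9% of all autosomal protein-coding genes against 2.75% of those of at most 5 kb).

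Rpl10l, Rpl39l, Pgk2, Pdha2, Cetn1 and Cstf2t can all share sequence with their parents, and no comparison of these sequences was run. How reads that match several places were treated is not stated in the sources used. The part of such reads in the domains was not tested. The domains of Rpl10l, Rpl39l and H1f7 all extended 449 to 1843 bases before the start, beyond the gene body. Whether the parts before the start hold reads that match elsewhere was not tested either. None of the 10 annotated pseudogenes named after the 6 parents (6 of Rpl10, 1 of Rpl39 and 3 of Pgk1) met a domain, where 9.58% of 10409 pseudogenes did, and 10 genes are too few to set 0 apart from that share. The nearest was Rpl10-ps4 on X, at 2.07 kb.

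A wider set was made of 13 other autosomal genes that are copies of X-linked parents. Of these, 3 met a domain, Timm8a2, Cox7b2 and Tktl2, or 23.1% beside 13.9% of autosomal protein-coding genes. The copies of at most 5 kb were Gk2, Gykl1, G6pd2, Prps1l1, Ubl4b, Rbmxl2, Rpl36al and Rps4l, the last annotated as a transcribed pseudogene. None of them met a domain. The share was 2.75% of autosomal protein-coding genes of at most 5 kb, and so few copies cannot be told apart from it. The 3 with a domain are longer, at 10.75 kb, 105.4 kb and 7.46 kb in the order named. In all 3 the 250 bases before the listed start met a domain (250 bases of Timm8a2 and Cox7b2 and 239 of Tktl2), out of 9 in the promoter table and beside 1.43% of autosomal protein-coding genes. Together, 5 of 19 autosomal copies of X-linked parents met a domain (26.3%), Rpl10l and Rpl39l among them by the choice of genes. Beside this stand 13.9% of all autosomal protein-coding genes and 2.75% of those of at most 5 kb, and neither share matches the 19 in length. In 4 of the 5 the start base of the annotated body was inside a domain, and in Timm8a2 only the start of the promoter table was. Among all autosomal protein-coding genes that met a domain, the start base of the annotated body was inside one in 193 of 2265 (8.52%), and among those of at most 5 kb in 60 of 103 (58.3%).

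Tktl2, a transketolase-like gene on chromosome 8, had the narrowest of these domains, 0.750 kb at 66511501 to 66512250. It took in 239 bases before the start and 511 bases of the gene, 6.85% of the body. Cox7b2, a copy of a gene for a cytochrome c oxidase subunit, spans 105.4 kb on chromosome 5 and had a domain of 1.35 kb over its start and another of 6.60 kb inside. Timm8a2, a copy of a mitochondrial import gene on chromosome 14, had a domain of 1.65 kb at 122033701 to 122035350, around a start that lies inside its annotated body. It was more isolated than those of Rpl10l and H1f7, with the next domain 193.7 kb away.

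The other 10 copies met no domain: Utp14b, Gk2, Gykl1, G6pd2, Prps1l1, Prps1l3, Ubl4b, Rbmxl2, Rpl36al and Rps4l. Gk2, a testis glycerol kinase gene, was at 28.7 kb and G6pd2, a testis glucose-6-phosphate dehydrogenase gene, at 28.2 kb. Prps1l3 was the farthest at 184.2 kb. The median distance of all 13 was 28.7 kb.

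**Figure D3:**
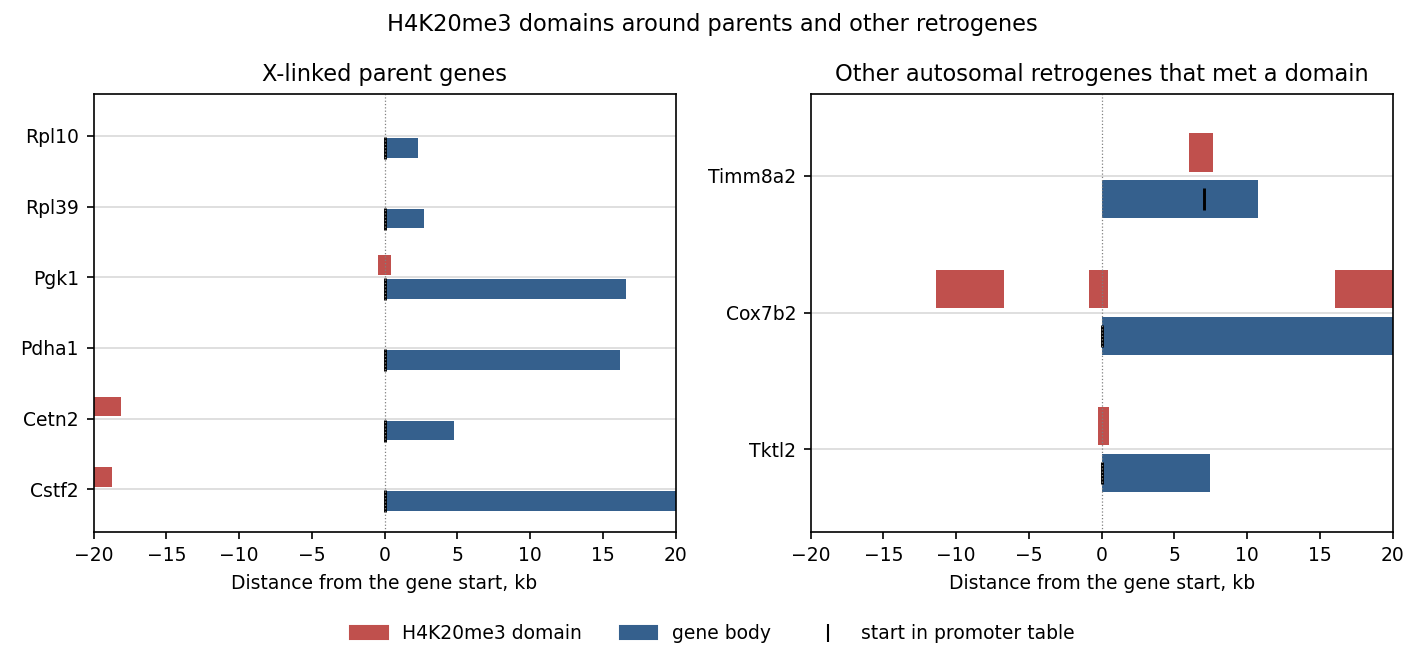
Domains (red, upper bars) and gene bodies (blue, lower bars) of the 6 X-linked parents and of the 3 other autosomal retrogenes that met a domain, with distance from the gene start in kb on the x axis; genes are drawn 5′ to 3′ and black ticks mark the start in the promoter table. Domains of 0.900, 1.65, 1.35 and 0.750 kb sit over the listed starts of Pgk1, Timm8a2, Cox7b2 and Tktl2, and the starts of the other 5 parents have none.

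The domains at the starts of copied genes were mostly narrow. Those of Tktl2 (0.750 kb), Rpl10l (1.20 kb), Cox7b2 (1.35 kb) and Timm8a2 (1.65 kb) lay in the narrow part of the autosomal distribution, below its lower quartile of 1.80 kb. Only that of Rpl39l, at 5.10 kb, was above the upper quartile of 4.65 kb. When domains narrower than the median of all domains, 3.00 kb, were left out, 1 of the 9 genes (Rpl39l) still met a domain, beside 1.64% of autosomal protein-coding genes of at most 5 kb. The H1f7 domain was 1 grid step of 150 bases below that limit, and with the autosomal median of 2.85 kb as the limit 2 of the 9 genes met a domain (1.68% of autosomal protein-coding genes of at most 5 kb). Of the 13 other copies 1 did (Cox7b2, through the domain inside it), beside 8.23% of autosomal protein-coding genes. With domains closer than 5 kb merged, the count of the 9 stayed at 3 (2.84% of autosomal protein-coding genes of at most 5 kb) and Rpl39l was covered over its whole length of 4715 bases.

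**Figure D4:**
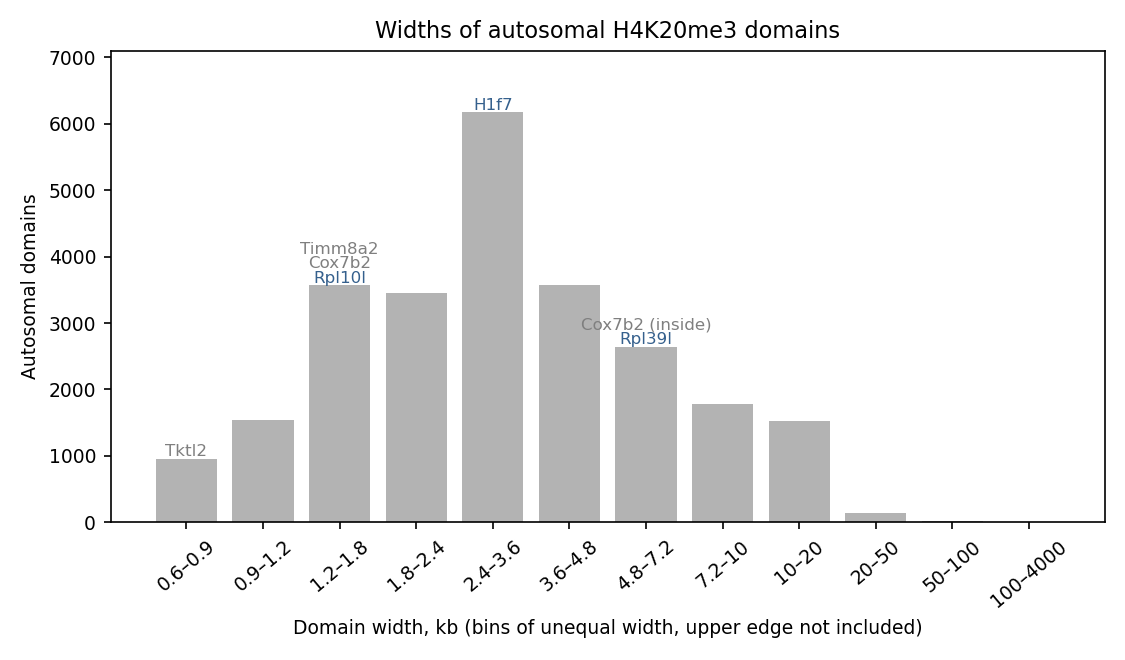
Number of autosomal domains (y axis) by width in kb (x axis, bins of unequal width), with the names of the testis genes (blue) and other retrogenes (grey) written above the bin that holds their domain; the domain inside Cox7b2 is marked. The domains of Tktl2, Rpl10l, Timm8a2 and the start of Cox7b2 fall in bins below 1.8 kb.

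Linker histones package DNA between nucleosomes, and of 11 such genes H1f7 had a domain. The other 10 (H1f0, H1f1, H1f2, H1f3, H1f4, H1f5, H1f6, H1f8, H1f9, listed as Hils1, and H1f10) met none, beside 13.9% of autosomal protein-coding genes and 2.75% of those of at most 5 kb, the closer background since 9 of the 10 are that short. At that share a count of 0 in 10 sets these genes apart from no others, and H1f7 was named for its domain. H1f6, a testis linker histone gene of the histone cluster on chromosome 13, came closest, 2.41 kb from a domain. Hils1, a spermatid linker histone, was the farthest at 225.2 kb. The genes share neighbourhoods, since H1f1, H1f2, H1f3, H1f4 and H1f6 lie close together on chromosome 13.

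Other genes of the same processes were counted list by list for those that met a domain. None of 5 other actin-like genes did, and the nearest to one were Actrt1 at 2.26 kb and Actl9 at 8.85 kb. None of 8 sperm and testis forms of energy metabolism did, among them Ldhc, the testis lactate dehydrogenase gene (318.3 kb away), and the aldolase retrogenes Aldoart1 (19.5 kb) and Aldoart2 (9.40 kb). None of 7 genes of sperm and testis chromatin proteins did, namely the protamine, transition protein and testis histone genes, at 93.4 to 110.0 kb. The 4 other ribosomal protein paralogs (Rpl3l, Rpl7l1, Rpl22l1 and Rps27l) met none. Of 8 partners of the parent proteins, 1 did, Dld, the shared dehydrogenase subunit of pyruvate dehydrogenase, whose start and first 571 bases lay under the edge of a domain of 16.8 kb. Over these lists and the 10 other linker histone genes together, 1 of 42 genes met a domain (2.38%), beside 13.9% of autosomal protein-coding genes and 2.75% of those of at most 5 kb. The lists mix short genes with genes of up to 74.9 kb, and Dld itself is 19.9 kb long, so neither share matches them in length. Actrt1 lies on X, where 18.3% of protein-coding genes met a domain.

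The promoters of the 9 genes had no base composition in common. In the 250 bases before the start, G+C was 48.0% for Rpl10l, 51.6% for Rpl39l and 52.8% for H1f7, and 31.6% (Pdha2) to 54.4% (Cstf2t) for the 5 others. The observed over expected ratio of CpG, which is low where methylated cytosines were lost over evolution, was 0.556 for Rpl10l (8 CpG), 0.749 for Rpl39l (12 CpG) and 0.172 for H1f7 (3 CpG). In the sequences printed above, the sparse capitals of H1f7 and the cluster of capitals past the middle of Rpl39l show this difference. The 5 others ran from 0.0862 for Actl7a to 1.03 for Cstf2t, so the groups overlapped in both measures. Over 21045 windows of protein-coding genes the median ratio was 0.537 and the median G+C 55.6%.

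Cstf2t had the most CpG of the 8 testis genes in the table, 19, and its ratio was above that of 93.95% of protein-coding windows or equal to it. The windows of the X-linked parents were more alike, with ratios of 0.557 (Rpl39) to 0.862 (Cstf2) and G+C of 52.8 to 62.8%. Pgk1, the parent with a domain, had 17 CpG and a ratio of 0.690, where Pgk2 had 3 and 0.272. Across all protein-coding genes, the 288 windows in a domain had a median ratio of 0.373, and the 20757 outside had 0.540.

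**Figure D5:**
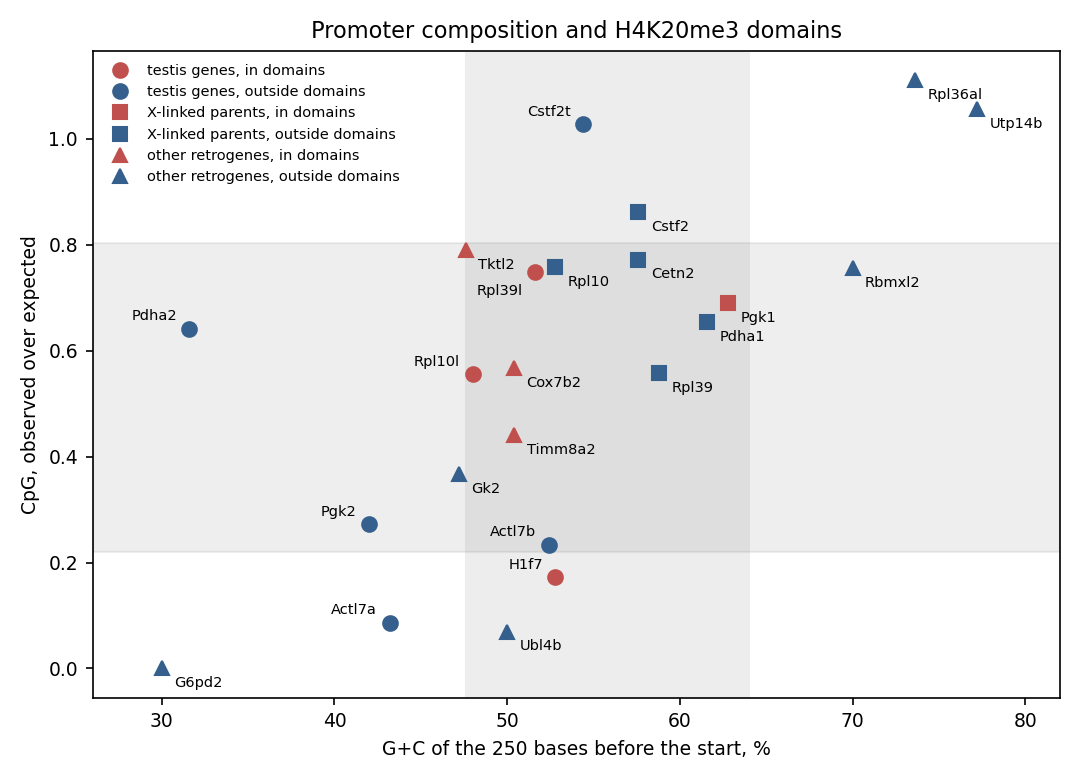
Observed over expected CpG (y axis) against G+C in percent (x axis) of the 250 bases before the start, for testis genes (circles), X-linked parents (squares) and other retrogenes (triangles), red where the window lies in a domain and blue where it does not; grey bands are the quartile ranges over protein-coding windows. Red and blue testis genes overlap, with H1f7 at 0.172 and Rpl39l at 0.749 among the red.

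A search was made for 6 short motifs on both strands of these windows, namely the TATA box (TATAAA), the CCAAT box (CCAAT), the GC box (GGGCGG), the cAMP response element (TGACGTCA), the E-box (CACGTG) and an E2F-type motif (GGCGGGAA), and the GC box and the E2F-type motif can share bases. Rpl39l, H1f7 and Actl7a held none of the 6. TATAAA was in Pdha2 alone (1 of 8 testis genes, beside 11.7% of protein-coding windows), and CCAAT in Pgk2, Cstf2t and Actl7b (35.65% of protein-coding windows). GGGCGG was in Rpl10l and Cstf2t (43.05%) and GGCGGGAA in Cstf2t alone (2.50%). TGACGTCA (1.94%) and CACGTG (6.70%) were in none of the 8. The windows in domains thus shared no motif of the 6.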

How the data were processed

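H4K20me3 ChIP-seq was made from 12 samples, 3 at each of 4 times. The authors called domains with RSEG, per the file name, and deposited 1 list of positions (chromosome, start, end, in bases) without any signal or score. Bowtie2 2.3.4.1, SAMtools 1.1, deepTools and bedtools and the builds mm10, dm6, mm9 and GRCm38 are named in the submitters' processing notes, but no source used here gives their roles or the libraries behind the calls. The domain positions were taken to be on GRCm38 (mm10), and every overlap and distance rests on that. All but 1 of the 28210 domains lie on a grid of 150 bases, so boundaries are given no more finely than that step. Their error is unknown and may be larger, since the list holds no signal and no replicate.

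Gene bodies came from a RefSeq table of GRCm38.p6, chromosomes 1 to 19 and X, without genes that start in the first 3 Mb. A gene met a domain when at least 1 base was shared. Strand and start came from a RefSeq promoter table, of which the 250 bases before the start were used. The members and the lists were chosen with earlier results of these data known. Named are the 9 members, 6 parents, nearest and containing protein-coding genes, and up to 3 genes per list that met a domain; other list genes are named after their values were seen. One neighbouring gene is not reported here. Pseudogenes were taken by symbol (a parent's name with -ps or -rs), a choice made after seeing the data. The planned comparison of times and of protein sequences was not run, since the files used hold no values per sample and no proteins. Overlap functions were tested on simulated data. Python 3.11.15, numpy 2.4.6, pandas 2.3.3 and matplotlib 3.10.9 were used.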

Additional observations from a re-analysis of the deposited data

How the results depend on the processing

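No paired analysis was possible because the list carries no sample or replicate, and for the same reason no replicate could be left out. With 1 kb added at gene ends, 4 of 9 testis genes met a domain, and with domains closer than 5 kb merged, 3 did; the covered bases summed over the 9 genes were 5312 as deposited and 6473 after merging, the whole difference being in Rpl39l, which was then covered over all of its 4715 bases. With only domains at or above the median width, counts fell to 1 for the testis genes, 0 for the parents and 1 for the other retrogenes, and the covered bases to 3554; with the autosomal median width as the limit, added after seeing the data, they were 2, 0 and 1. With at least 50% of the body covered, the testis genes, named with their domains known, stayed at 3, beside 1.55% of autosomal protein-coding genes of at most 5 kb. The parents, the other retrogenes and the remaining lists had 0 each, beside 2.8% of protein-coding genes on X and 0.642% of autosomal ones. The genes with a domain in those lists are 7.46 to 105.4 kb long, longer than any of the 9 testis genes. The median domain share around the 9 genes was 6.01% at 100 kb either side, 3.69% at 500 kb and 3.34% at 1000 kb. Counts by the 250 bases before the start, an alternative added after seeing the data, were the same as by gene body for the 9 testis genes, the parents, the other retrogenes and the remaining lists.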
